A study of Mus musculus with 6 samples.

Results

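The mRNAs described here encode 10 proteins of the mTORC1 pathway: the kinase Mtor and its scaffold Rptor, the upstream regulators Tsc1, Tsc2 and Rheb, the S6 kinases Rps6kb1 and Rps6kb2, the translation repressors Eif4ebp1 and Eif4ebp2, and the RNA-binding protein Larp1. They were chosen by the known function of their products from a table of 17348 genes, and each of the 10 was found by its symbol. All 10 passed the filter on low counts. mRNA of mouse cortices at E18.5 was sequenced from 3 Ybx1 conditional knockout (cKO) and 3 control (Ctrl) samples. The cKO embryos carried Nestin-Cre and 2 floxed Ybx1 alleles (Nestin-Cre, Ybx1 fl/fl), so that Cre, driven by the Nestin promoter, removes Ybx1 in the progenitors of the nervous system and in the cells born from them, while blood vessels, microglia and meninges in the dissected cortex are not primary targets. The labels give the Ctrl embryos as WT, and the study describes its controls both as Cre-negative Ybx1 fl/fl and as wild type littermates. The comparison asks whether loss of Ybx1, a protein that binds RNA carrying 5-methylcytosine, goes together with a change in the mRNAs of this pathway.

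mTORC1 is a protein kinase complex on the lysosome that couples amino acids, growth factors and energy to protein synthesis. The GTPase Rheb switches it on, the complex of Tsc1 and Tsc2 switches Rheb off, and the Rag GTPases bring mTORC1 to the lysosome. Active mTORC1 phosphorylates S6 kinases and the 4E-BPs, which otherwise hold the cap-binding protein eIF4E, and it releases Larp1 from mRNAs that begin with a terminal oligopyrimidine (TOP) stretch, chiefly those of ribosomal proteins and translation factors. In the developing cortex the pathway is known for its role in progenitor growth and neuronal size, and loss of Tsc1 or Tsc2 causes cortical malformations. Activity of the pathway rests largely on phosphorylation, which mRNA levels do not measure.

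Library totals ranged from 15091951 to 16885451 estimated counts. Levels are given as CPM, counts scaled to a common library size after TMM scaling, and 3 counts, taken as the detection floor, correspond to between 0.178 and 0.199 CPM. Floors and counting errors do not include the variation between embryos. Ybx1 itself was 1089 ± 182 CPM (SD, n = 3) in Ctrl and 24.6 ± 0.519 in cKO, a log2 fold change of -5.47 with an adjusted p of 6.95e-07 in edgeR's quasi-likelihood test. The Y-linked Eif2s3y, Kdm5d and Ddx3y were at 1 count or fewer in each cKO library and at 714 or more in each Ctrl library. Uty, also Y-linked, was at 14, 19 and 22 counts in cKO and at 508, 352 and 487 in Ctrl. Genotype and sex thus cannot be told apart, although all 10 genes lie on autosomes. Sex is also confounded with genotype for the other genes named below. Their chromosomes are not given, and any X-linked genes among them are not marked. Summed markers of cortical glutamatergic neurons were 3300 to 3933 CPM in Ctrl and 3175 to 3546 in cKO, and those of cortical progenitors 997 to 1183 and 1045 to 1074. The 7 lists of other cell types overlapped between groups except the meningeal fibroblast markers (10.4 to 12.1 CPM in Ctrl, 13.6 to 14.4 in cKO), no marker was at 0 in all libraries, and no marker passed the adjusted threshold. The part of the meningeal markers in the results was not tested. In bulk cortex, fewer cells of a type and less RNA per cell cannot be told apart. Ctrl replicate 2 stood apart from the other 5 libraries. Relative to the mean of the 6 libraries, its log2 CPM fell by 0.26 for each doubling of transcript length across 13319 genes. On the same relative scale the slopes of the others lay between 0.030 and 0.10. Slopes on this scale balance out over the libraries, so those of the others partly mirror that of Ctrl replicate 2. Fold changes of the 10 genes and of the TOP mRNAs are given with and without it, and ratios as ranges over left-out libraries. Those of the other pathway genes are given with all 6 libraries only.

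None of the 10 mRNAs passed an adjusted p of 0.05 in edgeR's quasi-likelihood test, where 0.0737% of the 13570 genes tested did so, 0.0221% with cKO higher and 0.0516% with cKO lower. None passed in DESeq2 either, which called 0.808% of 12254 genes and gave no adjusted p for Eif4ebp1. None had an unadjusted p under 0.05 in edgeR, against 6.62% of all genes. 6 log2 fold changes were below 0 and 4 above, where 49.4% of all genes were below, and their median was -0.021, beside 0.0027 over all genes tested. At 3 libraries a group these tests leave an interval around each value, and the intervals below state what size of change the data allow. P-values measure the spread between these samples, which the description of the series calls biological replicates.

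**Figure D1:**
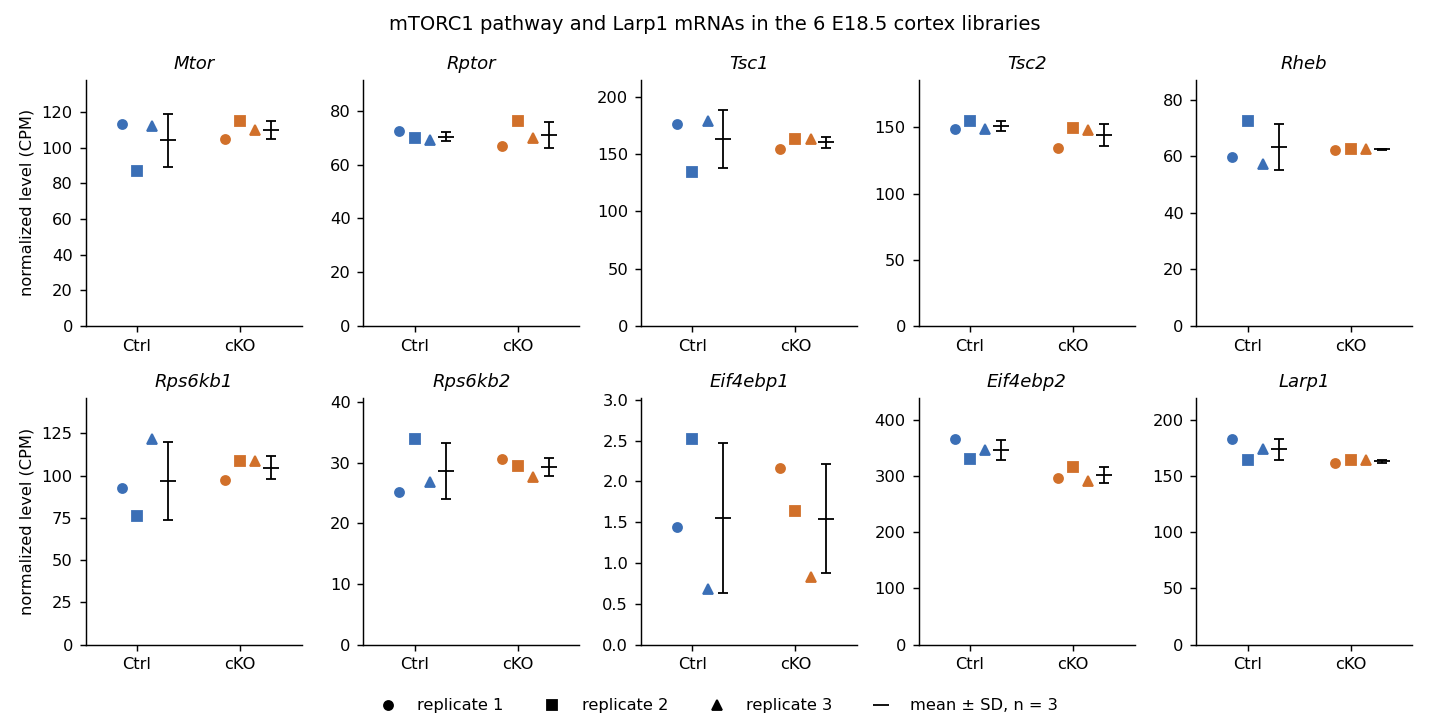
Normalized level (CPM, linear axis from 0) of each of the 10 mRNAs in the 6 libraries, with Ctrl in blue, cKO in orange, the symbol giving the replicate number and the black bars giving mean ± SD (n = 3). The groups overlap for 8 genes, and the Eif4ebp2 and Larp1 points of cKO all lie below those of Ctrl.

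Of the kinase complex, Mtor was measured at 113, 86.9 and 112 CPM in Ctrl replicates 1 to 3 and at 105, 115 and 110.0 CPM in cKO. The cKO values fell within the spread of Ctrl apart from replicate 2, which was the highest of all 6, and the lowest value belonged to Ctrl replicate 2. The means were 104 ± 14.9 and 110.0 ± 5.16 CPM (SD, n = 3), a log2 fold change of 0.078 (SE 0.13, 95% interval -0.21 to 0.36) with an adjusted p of 0.922 in edgeR. On the fold scale the interval runs from 0.866 to 1.29, so a doubling or halving of Mtor mRNA lies outside it. Rptor, the scaffold that recruits substrates to the kinase, was at 72.4, 70.0 and 69.1 CPM in Ctrl and 66.9, 76.3 and 70.0 CPM in cKO. Its groups overlapped completely, and the Ctrl libraries lay closer together than the cKO libraries. The log2 fold change was 0.012 (SE 0.10, 95% interval -0.22 to 0.24), adjusted p 0.989 in edgeR.

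Among the upstream regulators, Tsc1, which stabilizes the TSC complex, was at 176, 134 and 179 CPM in Ctrl and 154, 163 and 163 CPM in cKO. Ctrl replicate 2 was again the lowest, and Ctrl replicates 1 and 3 were above every cKO library. The means, 163 ± 25.1 and 160.0 ± 5.06 CPM, gave a log2 fold change of -0.028 (SE 0.13, 95% interval -0.32 to 0.27). Tsc2, the subunit that stimulates GTP hydrolysis by Rheb, was at 149, 155 and 149 CPM in Ctrl and 135, 149.6 and 148 CPM in cKO. The lowest of its 6 values was cKO replicate 1 and the groups overlapped, with a log2 fold change of -0.067 (SE 0.10, 95% interval -0.29 to 0.16). Rheb, the GTPase that activates mTORC1, was at 59.9, 72.6 and 57.5 CPM in Ctrl and at 62.2, 62.5 and 62.8 CPM in cKO. The cKO values were nearly identical and fell inside the Ctrl range, whose upper end was set by Ctrl replicate 2. Its log2 fold change was -0.020 (SE 0.12, 95% interval -0.28 to 0.24), and the adjusted p in edgeR was 0.973 for Tsc1, 0.918 for Tsc2 and 0.983 for Rheb.

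The S6 kinases phosphorylate ribosomal protein S6 and factors of translation initiation. Rps6kb1, which encodes S6K1, was at 92.8, 75.8 and 122 CPM in Ctrl and 97.1, 108 and 109 CPM in cKO. Both the highest and the lowest library were Ctrl, and the range on the log2 scale was 0.68 in Ctrl against 0.16 in cKO. With means of 96.7 ± 23.1 and 105 ± 6.64 CPM the log2 fold change was 0.12 (SE 0.17, 95% interval -0.26 to 0.49, adjusted p 0.916 in edgeR). Rps6kb2, which encodes S6K2, was at 25.3, 33.9 and 26.9 CPM in Ctrl and 30.7, 29.5 and 27.7 CPM in cKO. Ctrl replicate 2 was the highest of the 6 libraries and the other Ctrl libraries the lowest. Its log2 fold change was 0.031 (SE 0.14, 95% interval -0.28 to 0.34, adjusted p 0.973 in edgeR).

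The 4E-BPs compete with eIF4G for eIF4E and repress cap-dependent translation until mTORC1 phosphorylates them. Eif4ebp2, the major form in brain, was at 366, 331 and 347 CPM in Ctrl and 298, 318 and 292 CPM in cKO. Every cKO library was below every Ctrl library. The mean went from 348 ± 17.9 to 302 ± 13.6 CPM, so that cKO stood at 86.9% of Ctrl, a log2 fold change of -0.20 (SE 0.10, 95% interval -0.44 to 0.033). This did not pass the test, with an adjusted p of 0.796 in edgeR and p = 0.1 in the exact two-sided permutation test, the smallest value that 3 against 3 libraries allow. Eif4ebp1 was close to the limit of what these libraries can measure, at 23, 43 and 10 counts (1.44, 2.52 and 0.685 CPM) in Ctrl and 35, 26 and 13 counts (2.17, 1.64 and 0.830 CPM) in cKO. The values were scattered in both groups and overlapped. Its log2 fold change of -0.021 had an SE of 0.47. The 95% interval ran from -1.09 to 1.05, or 0.468-fold to 2.07-fold on the linear scale, so that even a doubling lay within it. The counts were few, and the libraries of each group also spread widely.

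Larp1, which binds the 5′ end of TOP mRNAs and both represses and stabilizes them, was at 183, 164.4 and 174 CPM in Ctrl and at 161, 164.1 and 164.0 CPM in cKO. All cKO values lay below all Ctrl values, but Ctrl replicate 2 and cKO replicate 2 differed by less than 1 CPM. The means were 174 ± 9.24 and 163 ± 1.62 CPM, with cKO at 93.9% of Ctrl. The log2 fold change was -0.091 (SE 0.099, 95% interval -0.31 to 0.13), with an adjusted p of 0.899 in edgeR and p = 0.1 in the exact permutation test. Eif4ebp2 and Larp1 were thus the 2 of 10 mRNAs whose groups did not overlap, both lower in cKO. Across all genes tested 14.3% did not overlap between groups, 6.93% with cKO lower and 7.35% with cKO higher.

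Because Ctrl replicate 2 was so often the extreme value, it was compared with the mean of Ctrl replicates 1 and 3. On the log2 scale the difference was -0.37 for Mtor, -0.40 for Tsc1 and -0.48 for Rps6kb1. It was above 0 for the mRNAs counted over a short length, at 0.30 for Rheb, 0.37 for Rps6kb2 and 0.99 for Eif4ebp1. Rptor (-0.015), Tsc2 (0.058), Eif4ebp2 (-0.11) and Larp1 (-0.12) were nearer to the other Ctrl libraries. The length over which RSEM counted a gene can be read from the ratio of its count to its FPKM, with a mean over libraries of 678 bases for Eif4ebp1, 1218 for Rheb and 1352 for Rps6kb2, and between 4239 and 7386 bases for the other 7. Across the 10 genes the difference and log2 length had a Pearson r of -0.885, and -0.784 over the 9 genes without Eif4ebp1, while 86 other genes of the pathway, those with a Ctrl mean of at least 10 CPM, gave -0.723. These are descriptions across genes measured in the same libraries.

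**Figure D2:**
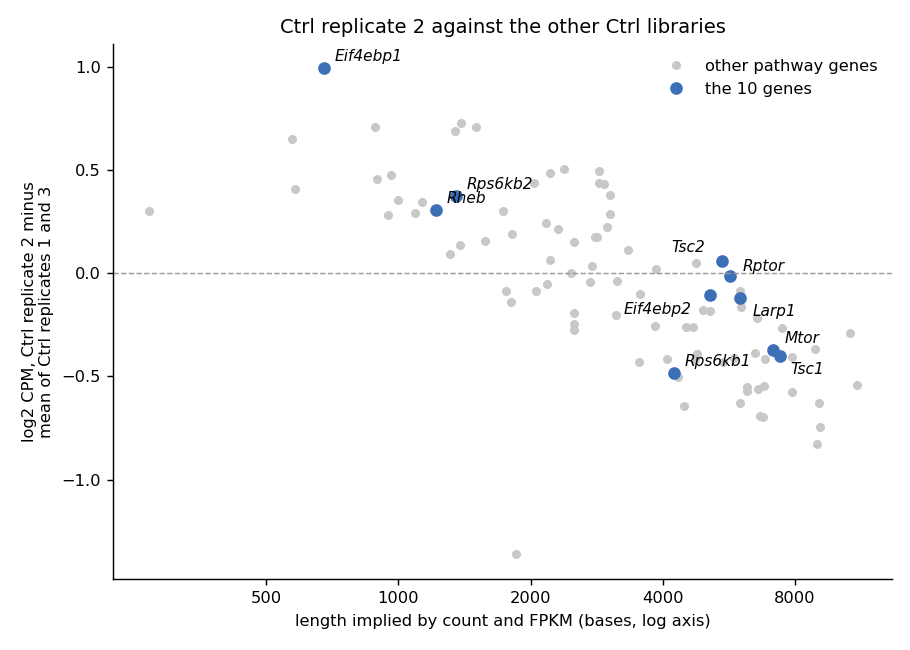
Difference in log2 CPM between Ctrl replicate 2 and the mean of Ctrl replicates 1 and 3 (vertical axis) against the length implied by count and FPKM (bases, log axis), with the 10 genes in blue and 86 other pathway genes in grey. Eif4ebp1, Rheb and Rps6kb2, the 3 shortest of the 10, lie above 0, and Mtor, Tsc1 and Rps6kb1 lie below -0.3.

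Without Ctrl replicate 2, none of the 10 passed the adjusted threshold in edgeR, beside 0.891% of 13687 genes. Eif4ebp2 was at -0.24 (95% interval -0.41 to -0.063), with an unadjusted p of 0.0125, where 6.55% of all genes were under 0.05 with cKO lower, and an adjusted p of 0.263 in edgeR. Larp1 was at -0.13 (95% interval -0.29 to 0.034, adjusted p 0.527). 4 log2 fold changes took the other sign, namely Mtor (-0.037), Rheb (0.090), Rps6kb1 (-0.031) and Eif4ebp1 (0.52). The number of genes whose groups did not overlap went from 2 to 5, with Tsc1, Eif4ebp2 and Larp1 lower and Rheb and Rps6kb2 higher in cKO, but with 2 Ctrl libraries 29.8% of all genes tested were of this kind. Removing a smooth trend on transcript length and GC content from every library, with all 6 kept, left all 10 short of the adjusted threshold, which 1.12% of genes passed, and gave -0.24 (95% interval -0.38 to -0.095, adjusted p 0.139 in edgeR) for Eif4ebp2 and -0.14 (95% interval -0.28 to 0.0013, adjusted p 0.400) for Larp1.

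**Figure D3:**
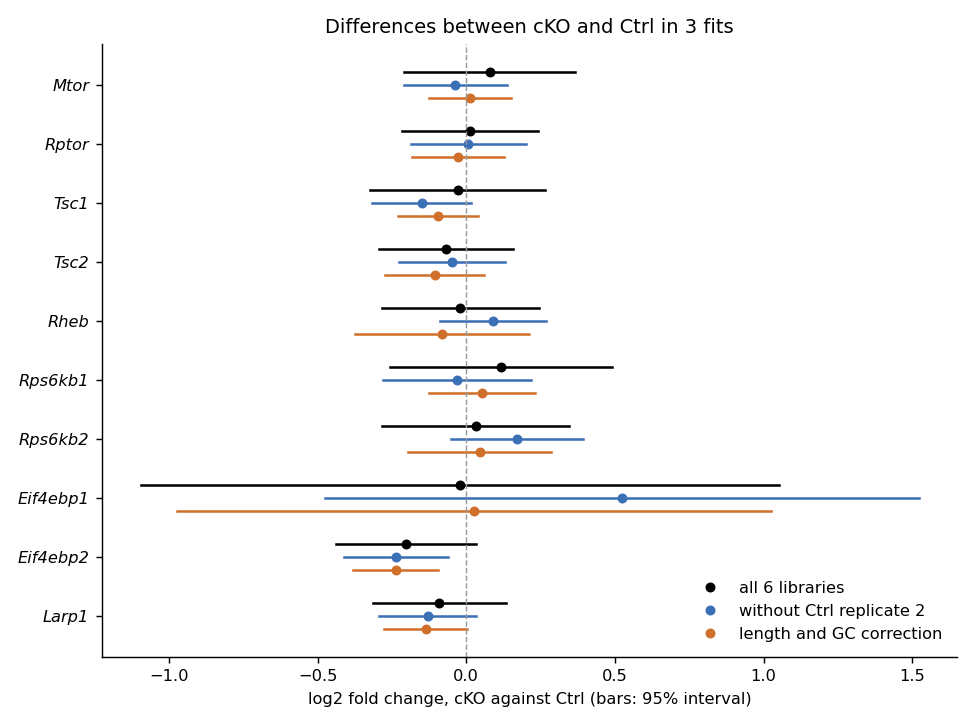
Log2 fold change of cKO against Ctrl (points) with its 95% interval (bars) for each of the 10 mRNAs in 3 edgeR fits: all 6 libraries (black), without Ctrl replicate 2 (blue) and after the length and GC correction (orange). The Eif4ebp2 interval lies below 0 in the last 2 fits and reaches 0.033 in the first, and all other intervals include 0.

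Levels of different genes were compared per length, on the TPM scale. In Ctrl, Eif4ebp2 was the most abundant at 144 ± 19.9 TPM (SD, n = 3), followed by Rheb at 109.9 ± 3.35, Larp1 at 62.0 ± 7.73, Tsc2 at 59.0 ± 4.38, Tsc1 at 47.5 ± 10.9, Rps6kb1 at 47.5 ± 16.3, Rps6kb2 at 44.7 ± 3.22, Mtor at 31.4 ± 5.80, Rptor at 27.0 ± 0.990 and Eif4ebp1 at 4.67 ± 2.36 TPM. Eif4ebp2 and Rheb mRNAs were thus several times as abundant as those of the kinase and its scaffold. Neighbours did not overlap at 4 steps of this order, between Eif4ebp2 and Rheb, Rheb and Larp1, Rps6kb2 and Mtor, and Rptor and Eif4ebp1. From Larp1 down to Rps6kb2, and between Mtor and Rptor, the ranges of neighbouring genes overlapped. Of these neighbours Tsc2 was above Tsc1 within every Ctrl library, and the order of the others differed between libraries. In cKO, Eif4ebp2 (141 ± 8.21 TPM) and Rheb (121 ± 0.369 TPM) were again the highest and Mtor (36.0 ± 1.02), Rptor (28.9 ± 1.41) and Eif4ebp1 (5.40 ± 2.39) the lowest. TPM values are shares of a fixed total, and the median gene was 0.14 higher in cKO on the log2 scale of TPM + 1, so TPM differences between the groups are read against that shift.

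Ratios between functional partners within a library do not depend on library scaling, and 6 were compared. The ratio of Rps6kb1 to Rps6kb2 TPM was 1.11, 0.659 and 1.45 in Ctrl and 0.966, 1.32 and 1.33 in cKO. Mtor to Rptor was 1.29, 0.943 and 1.25 in Ctrl and 1.23, 1.22 and 1.29 in cKO. Tsc2 to Tsc1 was 1.15, 1.55 and 1.14 in Ctrl and 1.18, 1.25 and 1.23 in cKO. In each of these 3 ratios the farthest value was that of Ctrl replicate 2, and the groups overlapped. Rheb to Mtor was 3.16, 4.60 and 3.06 in Ctrl and 3.45, 3.25 and 3.39 in cKO. Eif4ebp2 to Eif4ebp1 was 33.9, 17.3 and 65.6 in Ctrl and 17.9, 26.3 and 46.9 in cKO, the wide scatter going with the few counts of Eif4ebp1. For these 5 ratios the exact permutation p lay between 0.7 and 1, and each was 1 after Benjamini-Hochberg adjustment over the 6.

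The sixth ratio set Larp1 against its clients. Per 1000 TPM of the 79 summed ribosomal protein mRNAs, Larp1 was at 0.466, 0.311 and 0.492 TPM in Ctrl and at 0.558, 0.577 and 0.567 TPM in cKO. Every cKO library was above every Ctrl library, and Ctrl replicate 2 was the lowest. The difference was 0.45 on the log2 scale (exact two-sided permutation p = 0.1, the smallest possible, and 0.6 after adjustment over the 6 ratios), or 0.24 without Ctrl replicate 2. The ratio moved with its denominator. The ribosomal protein sum was 142951, 170368 and 134751 TPM in Ctrl and 114176, 110550 and 113601 TPM in cKO, while Larp1 TPM was 62.0 ± 7.73 and 64.0 ± 0.381. Of these 79 mRNAs, all had a log2 fold change below 0 (median -0.60), 69 had an unadjusted p under 0.05 with cKO lower, against 3.49% of all genes, and 2 passed the adjusted threshold in edgeR, against 0.0516%. These mRNAs are short, and in Ctrl replicate 2 their median was 0.62 above the other Ctrl libraries on the log2 scale. Without that library all 79 were again below 0, with a median of -0.35, 69 at an unadjusted p under 0.05 and 23 past the adjusted threshold in edgeR, against 0.891% of all genes. After the length and GC correction the median was -0.45, and 33 of the 79 passed the adjusted threshold in edgeR, against 1.12% of all genes. The 16 other TOP mRNAs had a median of -0.61. Of them, 11 were lower at an unadjusted p under 0.05 in edgeR, against 3.49% of all genes, and none passed the adjusted threshold. Without Ctrl replicate 2 their median was -0.44 and 9 passed that threshold, against 0.891% of all genes.

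**Figure D4:**
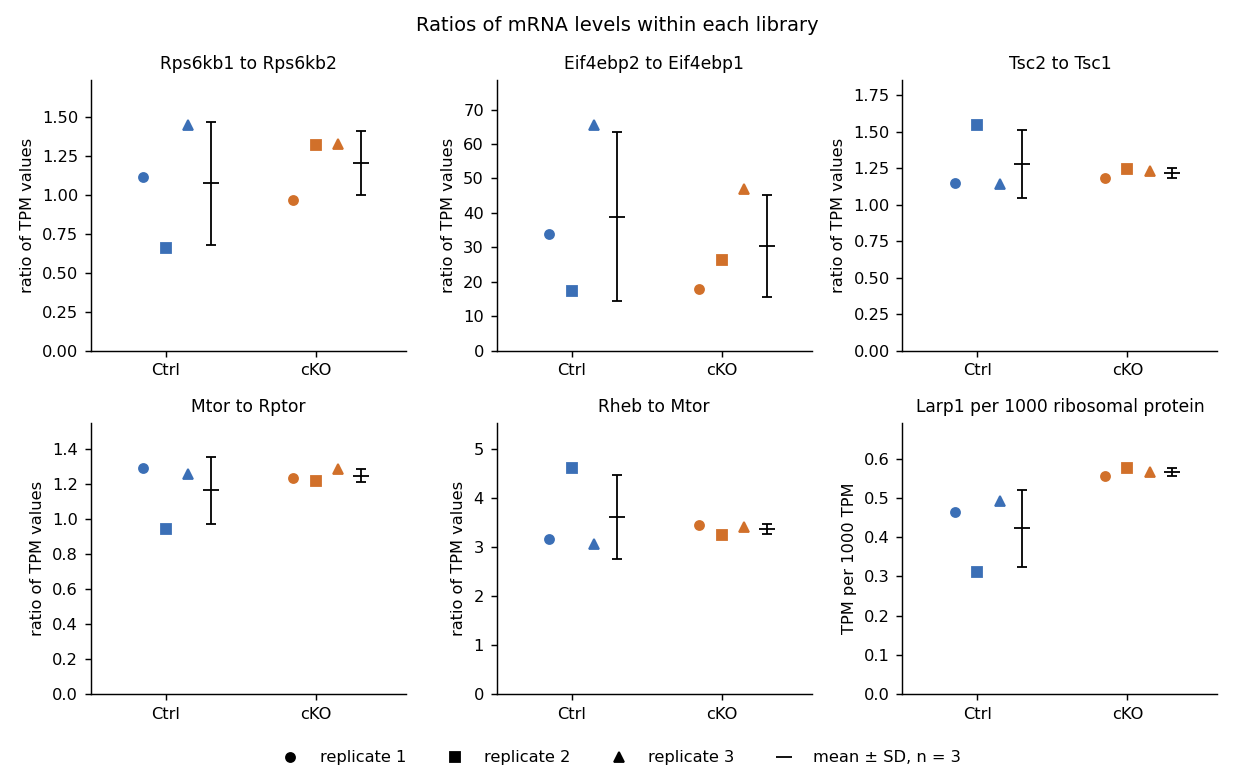
Ratios of mRNA levels (TPM, linear axes from 0) within each of the 6 libraries, with Ctrl in blue, cKO in orange and mean ± SD (n = 3) in black. Only Larp1 per 1000 summed ribosomal protein TPM separates the groups, with Ctrl at 0.311 to 0.492 and cKO at 0.558 to 0.577, and Ctrl replicate 2 is an extreme of the Ctrl group in all 6 panels.

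TOP mRNAs are defined by their first bases, a C at the start followed by a run of pyrimidines. The 30 bases around the annotated start, from 10 bases before it, were taken from RefSeq (GRCm38.p6) for 8 of the 10 genes, and are shown for the kinase, for Larp1, for the mRNA with the smallest p-value among the 10, and for a pair of ribosomal protein mRNAs, those with the smallest p-values among the ones with such a run. Capitals mark every run that opens with a C, no more than 10 bases from the annotated start, and goes on with at least 5 pyrimidines (C or T), on the strand of the gene.
Mtor, chr4:148448572-148448601, plus strand: CCTCCCCaCCTCCCTggcctagaagacagc
Larp1, chr11:58009054-58009083, plus strand: aggcgcgccggagCCTTCTgcccggcgcgc
Eif4ebp2, chr10:61452650-61452679, minus strand: cgcagcgggacgaccgggcgagagcaggcg
Rps12, chr10:23787190-23787219, minus strand: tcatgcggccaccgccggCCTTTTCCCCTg
Rps2, chr17:24720053-24720082, plus strand: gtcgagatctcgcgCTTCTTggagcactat
Of the 8 genes, 2 (25%) held such a run, Mtor (with 2 of them) and Larp1. The share was 21.9% over 27025 genes with an entry, 27.2% over 81 other genes of the pathway and 55.2% over 58 ribosomal protein mRNAs. A match describes these letters and is not a mapped start site. The Larp1 window lies inside its annotated gene (chr11:57973418-58062034) and not at its first base. The same holds for Eif4ebp2 (chr10:61428491-61452790), and for Tsc1, Tsc2 and Rps6kb1, whose windows are not printed. Other starts of these genes are not shown, so the 25% was not read at the first base of every gene. Rps6kb2 and Eif4ebp1 had no entry.

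The rest of the pathway was described by 8 lists of 96 genes, all of them tested. None passed the adjusted threshold in edgeR in either direction, or in DESeq2. At an unadjusted p under 0.05, 2 were higher and 2 lower in cKO, where 3.14% and 3.49% of all genes were. 49 log2 fold changes were above 0 and 47 below, with a median of 0.0044, and the groups of 11 genes did not overlap, against 14.3% of all genes. The lists' medians lay between -0.11 and 0.11. Values without Ctrl replicate 2 are not given for these genes, and several named below rest partly on it. Its log2 CPM minus the mean of Ctrl replicates 1 and 3 was 0.69 for Kptn and 0.71 for Akt1s1. It was 0.49 for Pik3r2, 0.50 for Akt1 and 0.46 for Rhebl1. Among genes with a positive fold change it was -0.42 for Fnip2, -0.39 for Grb10, -0.57 for Larp4 and -0.41 for Larp4b.

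**Figure D5:**
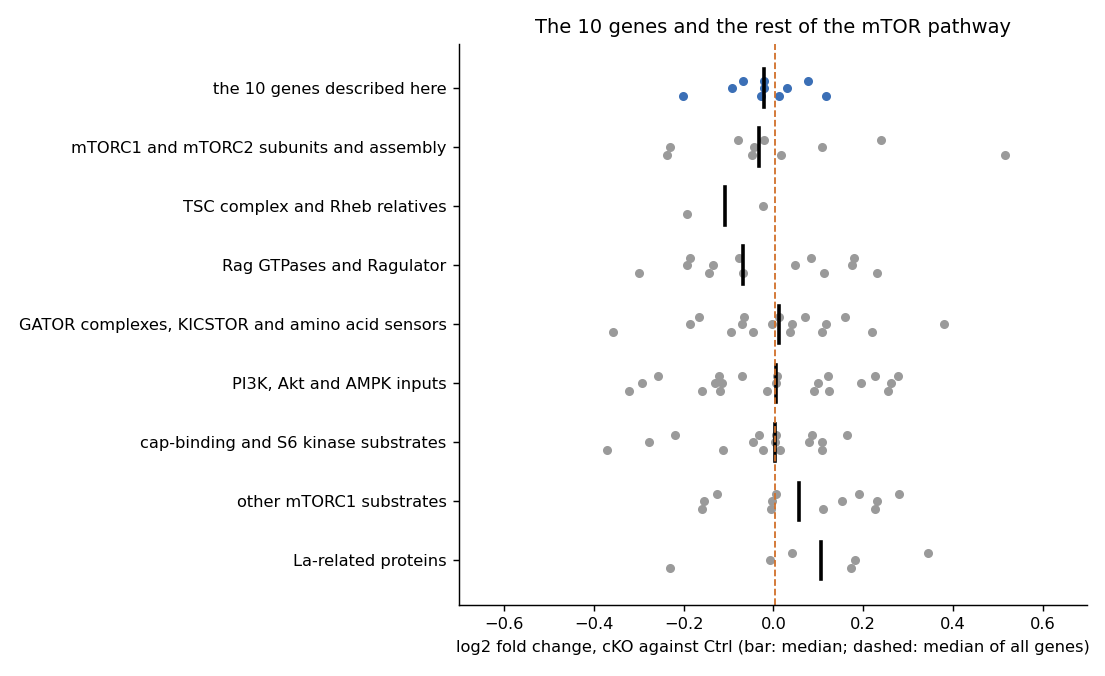
Log2 fold change of cKO against Ctrl for the 10 mRNAs (blue) and the 96 other genes of the pathway by list (grey), with the median of each list as a black bar and that of all genes tested as a dashed line. The medians lie between -0.11 and 0.11, and no gene shown passed the adjusted threshold.

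Of 10 mTORC1 and mTORC2 subunits and assembly factors (median -0.031), the smallest p-values were those of Prr5l, Mlst8 and Akt1s1. Mlst8, the subunit that binds the kinase domain in both complexes, had a log2 fold change of -0.24 (edgeR adjusted p 0.815), and Akt1s1, which encodes the mTORC1 inhibitor PRAS40, one of -0.23 (adjusted p 0.865). Prr5l, an mTORC2 component at 1.79 ± 0.416 CPM in Ctrl and 2.56 ± 0.382 in cKO, had 0.52 (adjusted p 0.793). The remaining subunit of the TSC complex, Tbc1d7, had -0.022, and the Rheb relative Rhebl1 had -0.19.

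The Rag GTPases and the Ragulator and folliculin complexes, which anchor mTORC1 to the lysosome and control its recruitment, had a median of -0.068 over 13 genes. Rragb, which encodes the GTPase RagB, was at 33.3, 30.5 and 31.5 CPM in Ctrl and 25.6, 25.4 and 26.5 CPM in cKO. All cKO libraries were lower, and the log2 fold change was -0.30 (95% interval -0.54 to -0.055, unadjusted p 0.0215, adjusted p 0.616 in edgeR). Genotype and sex cannot be told apart for this difference either, and the chromosome of Rragb is not given here. Lamtor2, a Ragulator subunit, had -0.19 and Fnip2, a folliculin partner, 0.23. The 17 genes of GATOR, KICSTOR and the amino acid sensors, which report amino acid supply to the Rags, had a median of 0.012. Seh1l, a GATOR2 subunit that also serves in the nuclear pore, was at 66.1, 59.7 and 79.4 CPM in Ctrl and 86.1, 89.6 and 91.3 CPM in cKO. All cKO libraries were higher, with a log2 fold change of 0.38 (95% interval 0.098 to 0.66, unadjusted p 0.0138, adjusted p 0.569 in edgeR). Kptn of KICSTOR had -0.36 and Bmt2, the S-adenosylmethionine sensor SAMTOR, 0.22.

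Among 21 PI3K, Akt and AMPK genes, which bring growth factor and energy signals to the TSC complex (median 0.0058), the PI3K subunit Pik3r2 had a log2 fold change of -0.32 (edgeR adjusted p 0.796) and the kinase Akt1 one of -0.29 (adjusted p 0.811). Neither passed, and the groups of both overlapped.

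Downstream, 15 cap-binding and S6 kinase substrate genes had a median of 0.0030. The smallest p-value of all 96 genes was that of Eif4b, an S6 kinase substrate that stimulates the helicase eIF4A. It was at 524, 492 and 533 CPM in Ctrl and 367, 425 and 406 CPM in cKO. All cKO libraries were lower, and the log2 fold change was -0.37 (95% interval -0.62 to -0.12, unadjusted p 0.00791, adjusted p 0.490 in edgeR). Eif4a1, the helicase itself, had -0.22 (adjusted p 0.789), also with no overlap between groups. Rps6, the S6 protein, had -0.28 (adjusted p 0.795) at 25.2 ± 3.27 CPM in Ctrl, and this value is uncertain since near-identical copies can take its reads.

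The 12 other mTORC1 substrates (median 0.058) include Grb10, an adaptor that restrains insulin signalling, with a log2 fold change of 0.28 (edgeR adjusted p 0.777), the lysosomal transcription factor Tfe3 with -0.15 (adjusted p 0.854) and the phosphatidate phosphatase Lpin1 with 0.15 (adjusted p 0.854). The 6 La-related genes, the family of Larp1, had a median of 0.11. Larp1b, the closest relative of Larp1, was at 10.7, 11.9 and 12.9 CPM in Ctrl and 14.7, 15.3 and 14.9 CPM in cKO. All cKO libraries were higher, with a log2 fold change of 0.34 (95% interval 0.040 to 0.65, unadjusted p 0.0308, adjusted p 0.672 in edgeR). Larp4 had 0.17 and Larp4b 0.18.

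Over the 6 libraries, the patterns most like that of Larp1 among 9879 genes with a mean of at least 10 CPM were those of Zfp324 (Pearson r 0.991), Pip4k2b (0.984) and Plk4 (0.982), and the most like Mtor were Spen (0.999), Ipo9 (0.997) and Add2 (0.997). Spen, for example, was at 236, 136 and 231 CPM in Ctrl and 195, 241 and 220.2 CPM in cKO. Like Mtor it was lowest in Ctrl replicate 2. These correlations share the libraries and their length trend and were picked as the highest of many.

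The length implied by count and FPKM separated the groups for 1 of the 10 genes. For Rps6kb1 it was 4371, 4623 and 4307 bases in Ctrl and 4298, 3783 and 4051 bases in cKO. Every cKO library was below every Ctrl library, but cKO replicate 1 (4298 bases) and Ctrl replicate 3 (4307 bases) nearly met. The cKO mean was 91.2% of Ctrl. Of 8689 genes, 13 (0.15%) separated in this direction with a cKO mean of at most 95% of Ctrl. The share that separated in either direction without that limit was not counted, so 0.15% is not the background for separation alone. The other 9 genes had cKO means between 97.8% and 103.6% of Ctrl and overlapped between groups, Rptor varying from 5162 to 5964 bases within Ctrl. RSEM sets this length from the transcript isoforms it assigns reads to, the gene was singled out after its values were seen, and no test was made. The shorter length enters its TPM, which was 47.5 ± 16.3 in Ctrl and 61.3 ± 7.15 in cKO. So do the shift of the median gene and the low Ctrl replicate 2, at 31.7 TPM. On the log2 scale of TPM + 1 the difference was 0.41, or 0.27 relative to the median of all genes. From counts, the log2 fold change was 0.12.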

How the data were processed

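RNA from E18.5 cortices was extracted with Trizol and sequenced as mRNA libraries on the DNBSEQ platform. The submitters' processing notes name HISAT2 2.2.1, Bowtie2 2.4.5 and RSEM 1.3.1 with GRCm38 and mm10, and the annotation and strandedness are not given in the sources used here. The authors deposited an estimated count, not normalized between libraries, a TPM value (scaled by length and to a fixed total) and an FPKM value (scaled by length and library total) for each gene and library. Columns of group averages hold the authors' means and were not used, and no per-sample column was left out.

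Groups and replicate numbers came from the labels. Estimated counts, 89.4% whole within 0.001, were rounded, filtered with filterByExpr, scaled by TMM and compared with edgeR 4.0.16 (quasi-likelihood test without a block, Benjamini-Hochberg adjustment over 13570 genes, R 4.3.3). The common biological coefficient of variation was 0.147. The method was tested on simulated counts. Single values were compared by exact two-sided permutation. No libraries were duplicates (chi-square per degree of freedom 3.41 to 62.4). Alternatives used DESeq2 1.42.0, limma 3.58.1 on log2(TPM + 1), mgcv 1.9.3 for the trend on length and GC content (16781 genes), and those named in the closing section. Of 17348 genes, 17296 were matched to RefSeq. Plots used matplotlib 3.10.9 (Python 3.11.15).

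The 10 members and all lists were chosen with earlier results of these data known. Named were the 10 genes, Ybx1, in each pathway list any gene past the threshold and otherwise the 3 with the smallest p, the 3 patterns nearest to Larp1 and to Mtor, and Y-linked genes as a check. An item withheld for evaluation is not named here.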

Additional observations from a re-analysis of the deposited data

How the results depend on the processing

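Under 16 alternative fits none of 159 values of the 10 genes passed the adjusted threshold, and 23 lay on the other side of 0. Eif4ebp2 was below 0 in all 16 fits (adjusted p 0.139 to 1.0) and Larp1 in 15 (adjusted p 0.400 to 1.0). The count over all genes, 10 as reported, was 99 with DESeq2, 152 with the length and GC correction, 149 with that correction and the replicate block, and 6 without X and Y genes. Leaving out a library gave 8 to 122, with 122 without Ctrl replicate 2 and 19 without Ctrl replicate 3. Genes among the 10 whose groups did not overlap numbered 2 to 5. The 5 came without Ctrl replicate 2, where 29.8% of all genes were of this kind, against 14.3% with all 6 libraries. For the other left-out libraries that share was not counted. Values that changed sign were, with limma on TPM, Tsc1 0.13, Tsc2 0.075, Rheb 0.14, Eif4ebp1 0.19 and Larp1 0.052, where the median of all genes was 0.14 and Larp1 relative to it was -0.089. They were Rptor -0.0023 with no filter on low counts, and Rptor -0.028 and Eif4ebp1 0.027 with the length and GC correction. The cause was not tested.

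With a library left out, log2 fold changes ran from -0.037 to 0.14 for Mtor, -0.042 to 0.055 for Rptor, -0.15 to 0.043 for Tsc1, -0.094 to -0.019 for Tsc2 (lowest in size without cKO replicate 1), -0.085 to 0.090 for Rheb, -0.031 to 0.31 for Rps6kb1, -0.052 to 0.17 for Rps6kb2, -0.36 to 0.52 for Eif4ebp1, -0.24 to -0.16 for Eif4ebp2 and -0.13 to -0.053 for Larp1 (lowest in size without Ctrl replicate 1). Log2 ratio differences ran from -0.092 to 0.48 for Rps6kb1 to Rps6kb2, -0.75 to 0.21 for Eif4ebp2 to Eif4ebp1, -0.13 to 0.092 for Tsc2 to Tsc1, -0.029 to 0.20 for Mtor to Rptor and -0.18 to 0.11 for Rheb to Mtor. FPKM in place of TPM kept each ratio's direction and the order of levels in Ctrl.

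Deviations of same-numbered Ctrl and cKO libraries correlated at 0.088, 0.061 and 0.23, so the numbers were not taken as pairs, although each library correlated best with its own number. With the replicate block 11 genes were called, Eif4ebp1 was at 0.030, and Eif4ebp2 at -0.20. With the block and the trend on length and GC content removed, Rptor was at -0.028 and Eif4ebp1 at 0.073.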
